A study of Mus musculus with 6 samples.

Results

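Oxidative phosphorylation in the inner mitochondrial membrane is carried out by complexes I to V, and this account describes the nuclear-encoded subunits of complexes I, II, III and V in mouse articular cartilage. The members were the genes with a protein-coding transcript whose symbols belong to the Nduf, Sdh, Uqcr and Atp5 series, together with Cyc1 and Ndufab1 and without Ndufa4, and the choice used symbols and transcript types only. This gave 66 of the 33971 genes in the table: 36 of complex I, 4 of complex II, 9 of complex III and 17 of complex V. The symbols of 7 further rows matched, but those rows were pseudogenes and were left out. The members lie on 19 chromosomes, and 2 of them, Ndufa1 and Ndufb11, are on the X chromosome.

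Articular cartilage of WT mice aged 2 months (3 libraries) was compared to that of WT mice aged 18 months (3 libraries) by poly(A)-selected, strand-specific RNA sequencing, to ask how the energy metabolism of cartilage differs with age. No agent was given to either age. The labels do not say whether a library came from 1 animal or from a pool, so p-values measure the spread between these libraries, which may be partly technical. The libraries held 48171507 to 59085179 counts.

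Complex I takes electrons from NADH and complex II takes them from succinate, and both pass them to ubiquinone. Complex III moves them on to cytochrome c, and complex V, the ATP synthase, uses the proton gradient that complexes I, III and IV build. Complex II is encoded by nuclear genes only, whereas complexes I, III and V also hold subunits encoded in the mitochondrial genome. Articular chondrocytes live with little oxygen and are known to rely largely on glycolysis.

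The tissue label was checked against marker genes before any comparison, because these lists moved with age. The 16 chondrocyte markers, such as Col2a1 and Acan, took 7.54 to 8.87% of counts at 2 months and 0.195 to 0.846% at 18 months. Beside 21.3% of all genes tested, 16 of these 16 were called lower. Of them, Matn1 and Matn3 had 0 counts in 1 library of 18 months. The 12 neutrophil markers went from 0.0013 to 0.368% at 2 months to between 4.12 and 4.45% at 18 months, the 10 erythroid markers measured from 0.0247 to 0.665% to between 2.72 and 3.59%, and the 6 proliferation markers from 0.0021 to 0.0631% to between 0.198 and 0.221%. Of these, 0 of 12, 3 of 10 and 4 of 6 were called higher, against 14.9% of all genes tested. The ages did not overlap in any of them, and every 18-month library lay above every 2-month library for 33.9% of all genes tested. In each of the 3 lists the highest 2-month value was that of replicate 2. Within it, the neutrophil genes Ly6g, Elane and Cxcr2 had 686, 3416 and 1218 counts, against 0 to 20 in the other two 2-month libraries. The part of these cells in the results on the subunits was not tested, and in bulk tissue fewer cells of a type and less RNA per cell cannot be told apart. The study's methods name male mice, yet Xist, which is transcribed from the silenced X chromosome of female cells, ranged from 88239 to 102417 counts at 2 months against 11 to 30 at 18 months. Age and the pattern of Xist cannot be told apart here.

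**Figure D1:**
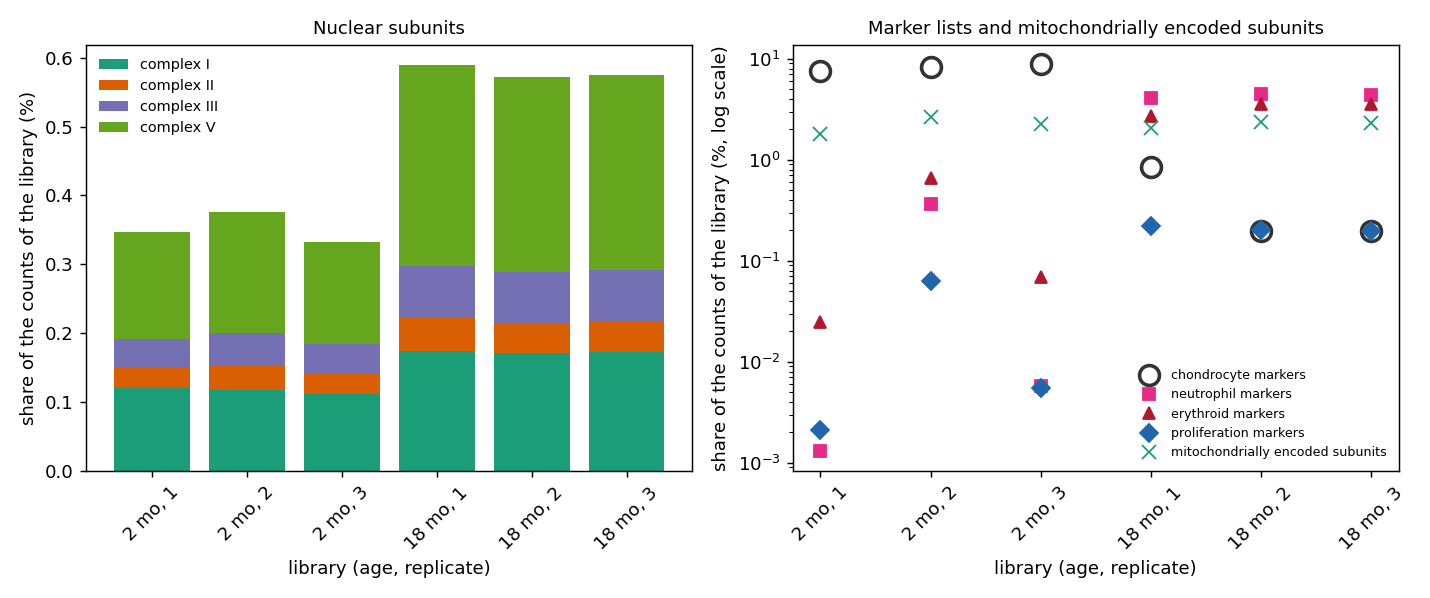
Left, share of each library's counts in percent taken by the subunits of each complex, as stacked bars. Right, share in percent on a log scale taken by marker lists and by the 13 mitochondrially encoded subunits, with 1 symbol per library. The subunits took 0.333 to 0.376% of counts at 2 months and 0.572 to 0.590% at 18 months, while chondrocyte markers fell and the shares of neutrophil and erythroid markers lay higher in each 18-month library than in any 2-month library.

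Promoter sequences of members that differed in their response to age are shown first, so that the values can be read beside them. RefSeq promoter windows (GRCm38.p6, 250 bases before to 50 after the annotated start) were matched to 55 of the 66 members. Each stretch below is 120 bases long, ends at the base before the start, and runs 5′ to 3′ on the strand of the gene. Capitals mark matches on either strand to GCGCANGCG, the core letters of the site of NRF1, or to CCGGAAG, those of GABP, both known regulators of respiratory genes. Sdhd and Sdha are shown because they encode parts of one complex and had unlike fold changes, and Ndufb7 and Ndufs3 because they do so within complex I. Sdhd lies at chr9:50603850-50603969 (minus strand), Sdha at chr13:74350241-74350360 (minus strand), Ndufb7 at chr8:83566638-83566757 (plus strand) and Ndufs3 at chr2:90904722-90904841 (minus strand).
Sdhd: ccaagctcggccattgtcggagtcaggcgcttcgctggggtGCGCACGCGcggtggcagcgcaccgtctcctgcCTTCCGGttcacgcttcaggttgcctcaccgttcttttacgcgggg
Sdha: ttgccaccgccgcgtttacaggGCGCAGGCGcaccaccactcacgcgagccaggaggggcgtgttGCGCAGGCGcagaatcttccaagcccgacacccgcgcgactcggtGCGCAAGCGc
Ndufb7: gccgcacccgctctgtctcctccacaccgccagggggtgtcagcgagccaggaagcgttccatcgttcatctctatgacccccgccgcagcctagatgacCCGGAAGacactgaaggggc
Ndufs3: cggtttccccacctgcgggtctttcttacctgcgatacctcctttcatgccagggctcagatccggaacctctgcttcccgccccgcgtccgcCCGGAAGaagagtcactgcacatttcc

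The NRF1 letters were found in the windows of 19 of the 55 members (34.5%), against 7.03% of the windows of 27025 genes, and the GABP letters in 14 of 55 (25.5%), against 9.93%. The letters AAGATGGCG, read by YY1, were in 7 of 55 member windows (12.7%), against 1.64% of all windows, and TCAAGGTCA, read by ERR alpha, in 2 of 55 (3.64%), against 0.466%. Both strands were searched. Member windows were also richer in G and C, with a median of 59% against 52.7% over all windows, and NRF1 and GABP letters are made largely of these bases. As a description, with no test, the median log2 fold change was 0.58 for the 19 with NRF1 letters and 0.64 for those without, and 0.79 for the 14 with GABP letters and 0.60 for those without. It was 0.64 with YY1 letters and 0.63 without, and 0.88 with ERR alpha letters, in 2 members, and 0.63 without. Sdha, whose stretch has 3 NRF1 matches, and Sdhd, with 1 NRF1 and 1 GABP match, had log2 fold changes of 0.02 and 1.0004.

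Nuclear subunits of the 4 complexes were mostly higher at 18 months, by modest amounts. With edgeR's quasi-likelihood test and Benjamini-Hochberg adjustment over 20397 genes, 47 of the 66 members (71.2%) were higher at an adjusted p below 0.05, against 23.4% of all genes tested. At the same threshold 0 members were lower, against 27.9% of all genes, and the count lower at an unadjusted p below 0.05 was 0 by edgeR and 0 by DESeq2. The median log2 fold change of the members was 0.64, against -0.02 over all genes. With the further limit of a log2 fold change above 1, 8 members (12.1%) were called higher, which is near the 14.9% of all genes, and 0 were called lower, against 21.3%. Of the 8, Ndufs8, Uqcrc1, Uqcrfs1 and Atp5pb kept this call under 16 of 17 alternatives, all but TPM, whereas Sdhd kept it under 9. On TMM-scaled CPM (counts scaled to library size), every 18-month library lay above every 2-month library for 51 members (77.3%), against 33.9% of genes tested. Among genes with a mean FPKM (fragments scaled by gene length and library total) of at least 1, where all 66 members remain, 45 were higher at an adjusted p below 0.05, against 26.6% of those genes. Rescaling to TPM, which sets the summed FPKM of 269587 to 293108 at 2 months and 360503 to 387502 at 18 months equal, moved the median of all genes to -0.33 and gave 25 members higher and 3 lower (Ndufs3, Ndufa2 and Ndufab1), although the members' median stayed 0.62 above that of all genes, compared to 0.66 with TMM.

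**Figure D2:**
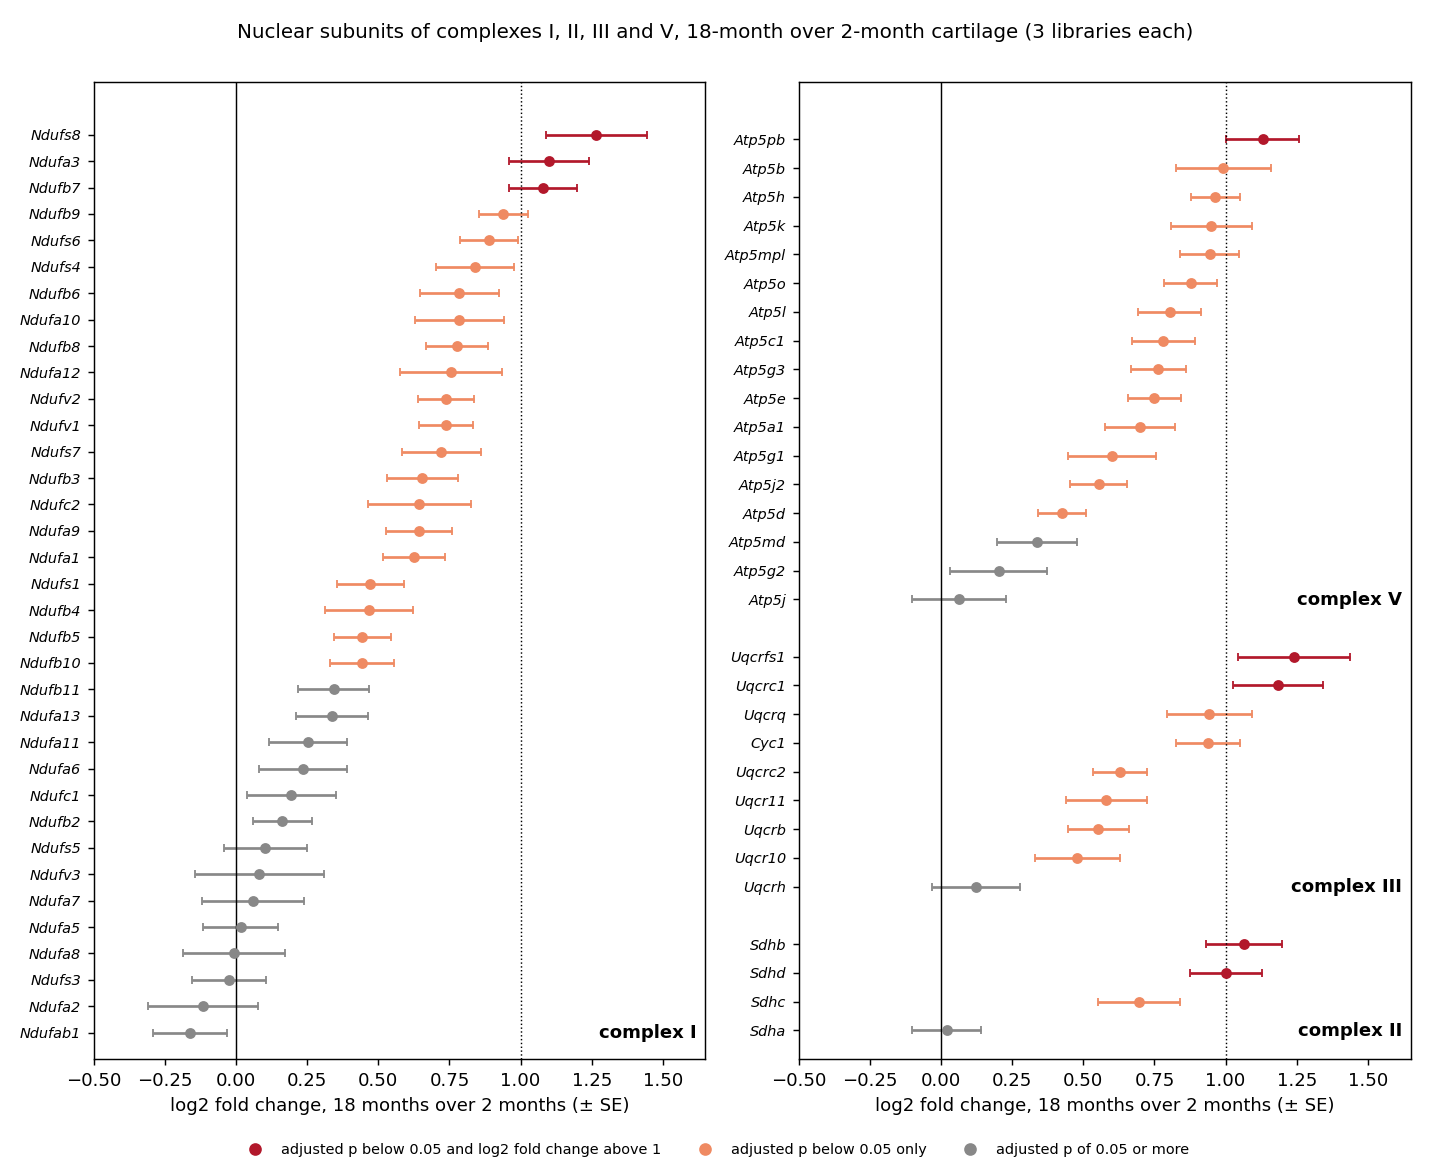
Log2 fold change of 65 of the 66 subunits at 18 months over 2 months (x axis, edgeR, 3 libraries per age), with bars of 1 standard error, grouped by complex and ordered by fold change. The solid line marks 0 and the dotted line a log2 fold change of 1. The 8 dark red subunits pass both limits, 38 orange subunits pass the adjusted p alone, and 19 grey subunits do not pass it.

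Complex I had the widest spread of fold changes. Of its 36 subunits, 22 were higher at an adjusted p below 0.05 (edgeR) and 14 were not past it, the median log2 fold change was 0.47, and the range was -0.16 to 1.27. Among the 7 core subunits, which carry the NADH site, the flavin and the iron-sulphur clusters, 6 rose, and the median of the 7 was 0.72. Among the 20 accessory subunits listed for the membrane arm 12 rose (median 0.46), and among the 9 accessory subunits of the matrix arm 4 rose (median 0.24).

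Ndufs8 (ENSMUSG00000059734, chromosome 19, 3908863 to 3912734, minus strand), a core subunit that binds iron-sulphur clusters on the way to ubiquinone, had the largest change of all members. Its FPKM was 9.35, 15.2 and 9.68 in the 2-month libraries and 29.7, 27.3 and 29.1 in the 18-month libraries. The ages did not overlap, and 2-month replicate 2 was the highest of its age. The log2 fold change was 1.27 ± 0.18 (SE, adjusted p = 0.00326, edgeR).

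Ndufa3 and Ndufb7, accessory subunits of the membrane arm, were the other two complex I subunits past both limits. Ndufa3 (chromosome 7, 3617373 to 3620327, plus strand) had an FPKM of 12.4, 16.4 and 11.1 at 2 months and 31.7, 29.96 and 28.4 at 18 months. Its log2 fold change was 1.10 ± 0.14 (SE, adjusted p = 0.00259, edgeR). Ndufb7 (chromosome 8, 83566671 to 83571626, plus strand), whose promoter stretch is printed above, had an FPKM of 6.41, 6.37 and 5.09 at 2 months and 14.3, 12.6 and 12.97 at 18 months. Its log2 fold change was 1.08 ± 0.12 (SE, adjusted p = 0.00181, edgeR), and neither gene had overlapping ages. Without 2-month replicate 3 the value of Ndufb7 was 0.997, just under the fold limit.

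Other core subunits rose less or were not past the test. Ndufv1, which binds NADH and the flavin, had a log2 fold change of 0.74 ± 0.10, Ndufv2, its iron-sulphur partner, 0.74 ± 0.10, and Ndufs7, which holds the last cluster before ubiquinone, 0.72 ± 0.14 (SE, adjusted p = 0.00263, 0.00282 and 0.00833, edgeR). Ndufs1, the largest subunit of the complex, had 0.47 ± 0.12 (SE, adjusted p = 0.0197, edgeR), and it lost the call when any 1 of 4 libraries was left out (adjusted p of up to 0.0788). Ndufs3, the core subunit whose promoter is printed above, had an FPKM of 17.2, 14.8 and 17.3 at 2 months and 18.0, 16.7 and 16.6 at 18 months. These ranges overlapped, and its log2 fold change of -0.03 ± 0.13 was not past the test (adjusted p = 0.884, edgeR) and changed sign with the scaling. Within each library, where scaling cancels, the ratio of Ndufs8 to Ndufs3 counts was 0.323, 0.607 and 0.331 at 2 months and 0.975, 0.970 and 1.04 at 18 months. This ratio, like the others below, was chosen after the values were seen, and with 3 libraries against 3 an exact permutation test could not go below p = 0.1, so it is given without a test.

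At the lower end of complex I, Ndufab1, the mitochondrial acyl carrier protein, had an FPKM of 4.52, 4.45 and 4.76 at 2 months and 4.88, 3.75 and 4.36 at 18 months (log2 fold change -0.16 ± 0.13, SE, adjusted p = 0.331, edgeR). Ndufa2, a small matrix-arm subunit, had 74.2, 49.2 and 60.2 against 62.6, 60.5 and 57.1 (log2 fold change -0.12 ± 0.19, SE, adjusted p = 0.641, edgeR). In both the ages overlapped, and the single lowest 2-month value was again that of replicate 2. Besides these and Ndufs3, the subunits not past the test were Ndufa5, Ndufa6, Ndufa7 and Ndufv3 of the matrix arm and Ndufa8, Ndufa11, Ndufa13, Ndufb2, Ndufb11, Ndufc1 and Ndufs5 of the membrane arm. Ndufb3, a membrane-arm subunit named in the study, rose with a log2 fold change of 0.65 ± 0.12 (SE, adjusted p = 0.00804, edgeR), near the median of all members.

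The X-linked subunits Ndufa1 and Ndufb11, both of the membrane arm, are given because Xist differed between the ages. Whether that difference bears on them was not tested. Ndufa1 had an FPKM of 46.3, 49.5 and 39.2 at 2 months and 75.2, 70.7 and 73.6 at 18 months, and its log2 fold change was 0.63 ± 0.11 (SE, adjusted p = 0.00602, edgeR). Ndufb11, the complex I subunit with the highest mean FPKM, had 60.1, 52.9 and 50.9 against 69.5, 78.6 and 71.7, and its log2 fold change of 0.34 ± 0.13 was not past the test (SE, adjusted p = 0.0643, edgeR). Ages did not overlap for either gene. Of the 649 X-linked genes tested, 20.96% were higher at an adjusted p below 0.05, against 23.4% of all genes tested. Lower at this threshold were 209 of the 649, a larger share than the 27.9% (5688 of 20397) of all genes tested.

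In complex II 3 of 4 subunits rose (median log2 fold change 0.85), and 1, Sdha, was not past the test. Sdhb, the iron-sulphur subunit (ENSMUSG00000009863, chromosome 4, 140961203 to 140979193, plus strand), had an FPKM of 12.5, 15.8 and 10.9 at 2 months and 27.4, 29.3 and 29.5 at 18 months. Its log2 fold change was 1.06 ± 0.13 (SE, adjusted p = 0.00238, edgeR). Sdhd, a membrane anchor (ENSMUSG00000000171, chromosome 9, 50596357 to 50603812, minus strand), had 34.1, 42.9 and 33.3 against 69.6, 80.4 and 81.5, and at 1.0004 ± 0.126 it lay just inside the fold limit (SE, adjusted p = 0.00247, edgeR). It fell below this limit when any 1 of 4 libraries was left out, to 0.96 to 0.97, and Sdhb did so without 2-month replicate 3, at 0.97. Sdhd was also the complex II subunit with the highest mean FPKM. Sdhc, the other anchor, had 9.74, 14.1 and 9.46 against 19.3, 17.9 and 19.3, with a log2 fold change of 0.70 ± 0.14 (SE, adjusted p = 0.0105, edgeR). In all 3 genes every 18-month library lay above every 2-month library.

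Sdha, the flavoprotein that oxidises succinate (ENSMUSG00000021577, chromosome 13, 74322254 to 74350280, minus strand), had an FPKM of 39.4, 45.6 and 39.96 at 2 months and 51.6, 40.4 and 41.7 at 18 months. The ages overlapped, and the log2 fold change of 0.02 ± 0.12 was not past the test (SE, adjusted p = 0.902, edgeR). Sdha made up 61.5, 58.4 and 63.1% of the counts of the 4 genes at 2 months and 50.4, 42.8 and 42.9% at 18 months, so these shares did not overlap. The ratio of Sdhb to Sdha counts was 0.170 ± 0.020 at 2 months and 0.355 ± 0.058 at 18 months (SD, n = 3 each), that of Sdhd to Sdha was 0.262 ± 0.016 and 0.526 ± 0.107, and neither overlapped. The ratio of Sdhb to Sdhd overlapped, at 0.646 ± 0.043 and 0.679 ± 0.032. The 2-month replicate 2 library had the highest Sdha, Sdhb, Sdhc and Sdhd of its age.

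**Figure D3:**
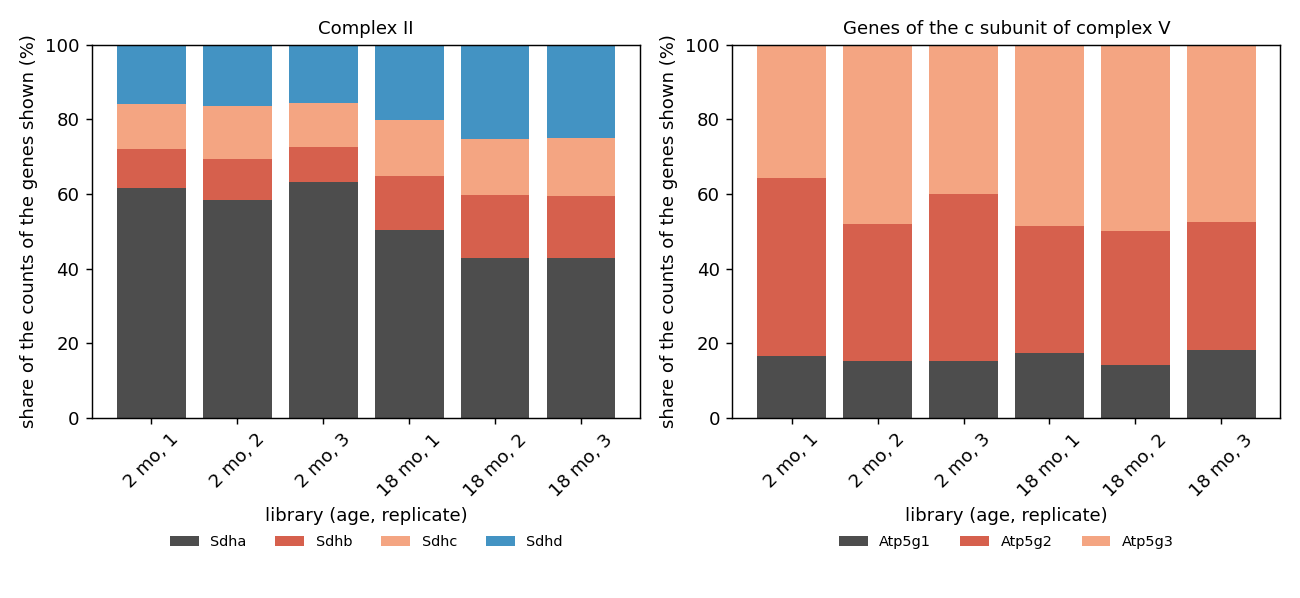
Share in percent of the counts of the 4 complex II genes (left) and of the 3 genes for the c subunit of complex V (right) in each library. Sdha took 58.4 to 63.1% of complex II counts at 2 months and 42.8 to 50.4% at 18 months, and Atp5g2 took 36.7 to 47.7% and 34.0 to 35.9% of c subunit counts.

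In complex III 8 of 9 subunits rose (median log2 fold change 0.63), including both catalytic nuclear subunits and both core proteins. Uqcrfs1, the Rieske iron-sulphur protein (ENSMUSG00000038462, chromosome 13, 30540308 to 30545362, minus strand), had an FPKM of 19.4, 28.05 and 16.2 at 2 months and 46.6, 54.8 and 55.6 at 18 months, with a log2 fold change of 1.24 ± 0.20 (SE, adjusted p = 0.0046, edgeR). Uqcrc1, a core protein (chromosome 9, 108936633 to 108949623, plus strand), had 10.01, 16.1 and 12.04 against 31.0, 29.5 and 30.5, with 1.18 ± 0.16 (SE, adjusted p = 0.00282, edgeR). In both genes the ages were apart and 2-month replicate 2 was the highest of its age.

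Cyc1, which encodes cytochrome c1, rose by a log2 fold change of 0.94 ± 0.11, and Uqcrq, a small subunit, by 0.94 ± 0.15, both just under the fold limit (SE, adjusted p = 0.00213 and 0.00456, edgeR). The small subunits Uqcrb and Uqcr10 rose by 0.55 ± 0.11 and 0.48 ± 0.15 (SE, adjusted p = 0.00844 and 0.0402, edgeR), and Uqcr10 lost the call when any 1 of 5 libraries was left out, with adjusted p of up to 0.106. The remaining risers were Uqcrc2, the second core protein, and Uqcr11. Uqcrh, the acidic hinge protein that helps cytochrome c dock, had the highest mean FPKM of the complex, 76.5, 57.8 and 63.9 at 2 months and 78.9, 75.7 and 74.3 at 18 months. Those ranges overlapped and its log2 fold change was 0.12 ± 0.15 (SE, adjusted p = 0.531, edgeR). The ratio of Uqcrfs1 to Uqcrh counts went from 0.365 ± 0.147 to 0.758 ± 0.094 (SD, n = 3 each).

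In complex V 14 of 17 subunits rose (median log2 fold change 0.76), and only Atp5pb passed both limits. All 5 subunits of F1, the catalytic head in the matrix, were higher, with log2 fold changes of 0.43 to 0.99. Atp5a1, the alpha subunit, had the highest mean FPKM of all 66 members, 91.3, 108 and 84.1 at 2 months and 161, 160 and 163 at 18 months (log2 fold change 0.70 ± 0.12, SE, adjusted p = 0.00631, edgeR). Atp5b, the beta subunit that carries the catalytic sites, had 62.6, 91.5 and 62.7 against 164, 145 and 143, and at 0.99 ± 0.17 it lay just outside the fold limit (SE, adjusted p = 0.00544, edgeR). Without 2-month replicate 2, the highest of its age here, the value was 1.17.

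The peripheral stalk, which holds the head still against the turning rotor, had the largest and the smallest change of the complex. Atp5pb, subunit b (ENSMUSG00000000563, chromosome 3, 105942698 to 105960099, minus strand), had an FPKM of 22.1, 28.2 and 19.7 at 2 months and 55.0, 53.6 and 52.4 at 18 months, with a log2 fold change of 1.13 ± 0.13 (SE, adjusted p = 0.00195, edgeR). Its exons overlap 540 bases of genes on the other strand (Wdr77 and Gm42890), and the strand setting of the counting is not stated in the sources used here. Atp5h, subunit d, had a log2 fold change of 0.96 ± 0.09 (SE, adjusted p = 0.00125, edgeR). Atp5j, coupling factor 6, had 30.9, 22.6 and 25.6 against 28.8, 29.2 and 29.6, which overlapped, and its log2 fold change was 0.06 ± 0.16 (SE, adjusted p = 0.767, edgeR). Atp5j shares 397 bases of exon with Gabpa, which lies on the opposite strand. The ratio of Atp5pb to Atp5j counts was 1.19 ± 0.382 at 2 months and 2.41 ± 0.091 at 18 months (SD, n = 3 each).

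Atp5g1, Atp5g2 and Atp5g3 encode the same mature c subunit, the ring that turns as protons pass, and differ in their import sequences. Atp5g3 rose from 26.9, 34.0 and 27.99 to 53.5, 53.3 and 51.9 FPKM (log2 fold change 0.76 ± 0.10, SE, adjusted p = 0.00254, edgeR). Atp5g1, the lowest of the 3, rose by 0.60 ± 0.15 (SE, adjusted p = 0.0216, edgeR), a call that leaving out 2-month replicate 3 or 18-month replicate 1 or 3 ended, with adjusted p of up to 0.0756. Atp5g2 had 46.8, 33.7 and 40.6 against 48.7, 49.9 and 49.2 FPKM and was not past the test (log2 fold change 0.20 ± 0.17, SE, adjusted p = 0.352, edgeR). Of the counts of the 3 genes, Atp5g2 took 47.7, 36.7 and 44.6% at 2 months and 34.0, 35.9 and 34.5% at 18 months, and 2-month replicate 2 lay closest to the 18-month libraries. Among the 5 small membrane subunits 4 rose, and Atp5md, which is known to help ATP synthase dimers form, had a log2 fold change of 0.34 ± 0.14 that was not past the test (SE, adjusted p = 0.091, edgeR).

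**Figure D4:**
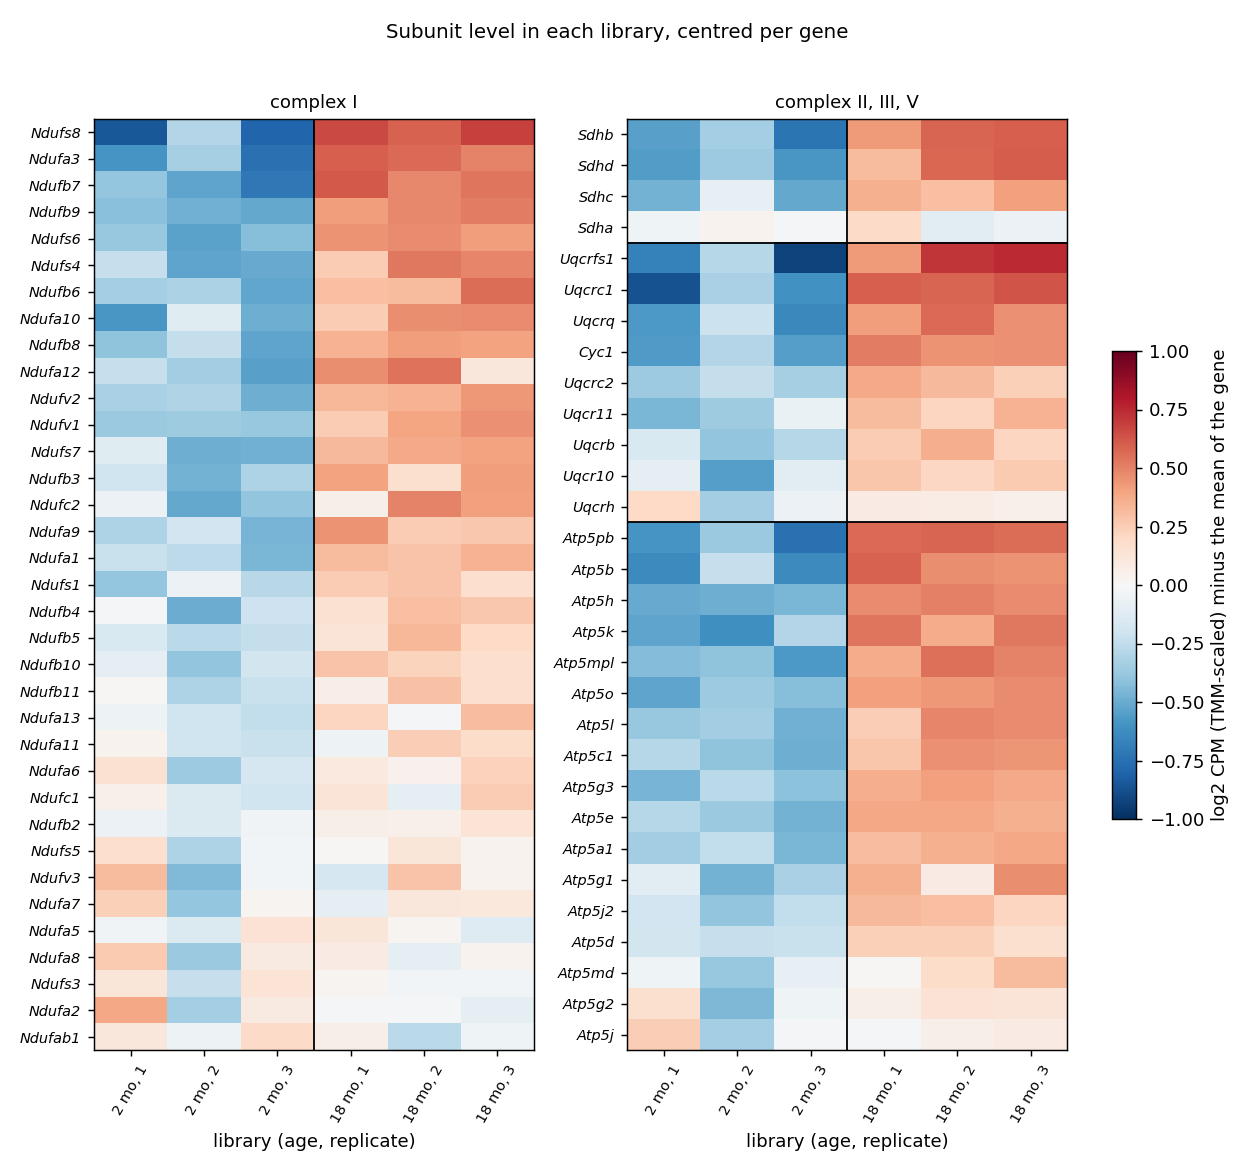
TMM-scaled log2 CPM of 65 of the 66 subunits in each library, minus the mean of that gene over the 6 libraries (colour, from -1 to 1), with complex I on the left and complexes II, III and V on the right, each ordered by fold change. The upper rows of each block are blue at 2 months and red at 18 months, and in the lowest rows of complexes I, III and V the bluest cell is mostly 2-month replicate 2.

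The 2-month libraries differed among themselves, and the order of the subunits in that difference resembled their order by age. Among the 8 subunits called by both limits, replicate 2 was the highest 2-month library on TMM-scaled CPM in 7 and the lowest in 0. Among the 19 subunits not past the adjusted p it was the highest in 1 and the lowest in 15. For the 39 past the adjusted p but under the fold limit these counts were 18 and 14. Over all 66 they were 26 and 29, so replicate 2 was not higher throughout. To keep the libraries separate, the difference between replicates 2 and 1 was set beside the difference between the 18-month mean and replicate 3. Across the 66 subunits the Spearman correlation of these differences was 0.71, and with replicates 1 and 3 exchanged it was 0.78. Over all 20397 genes tested it was 0.58 and 0.64. The correlations describe genes measured in the same libraries, which are not independent points. The 2-month replicate 2 was also the 2-month library with the highest share of every marker list except that of chondrocytes. Neutrophil, erythroid, proliferation, macrophage and adipocyte shares were higher still in each 18-month library. The endothelial share was too, but through Vwf (700 counts in replicate 2, 7941 to 9126 at 18 months). Pecam1 had 4201 counts in replicate 2 and 4391 to 4746 at 18 months. Cdh5, Kdr, Tie1 and Emcn had fewer counts in each 18-month library than in replicate 2. Other shares were not higher, such as osteoblast markers (0.673% in replicate 2, 0.115 to 0.116% at 18 months) and osteoclast markers (0.586%, and 0.239 to 0.271%). The part of any of these in the pattern was not tested. Without replicate 2, 12 subunits were called higher by both limits and 47 by adjusted p alone. Among them were all 8 and all 47 of the main comparison, and 0 were lower.

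**Figure D5:**
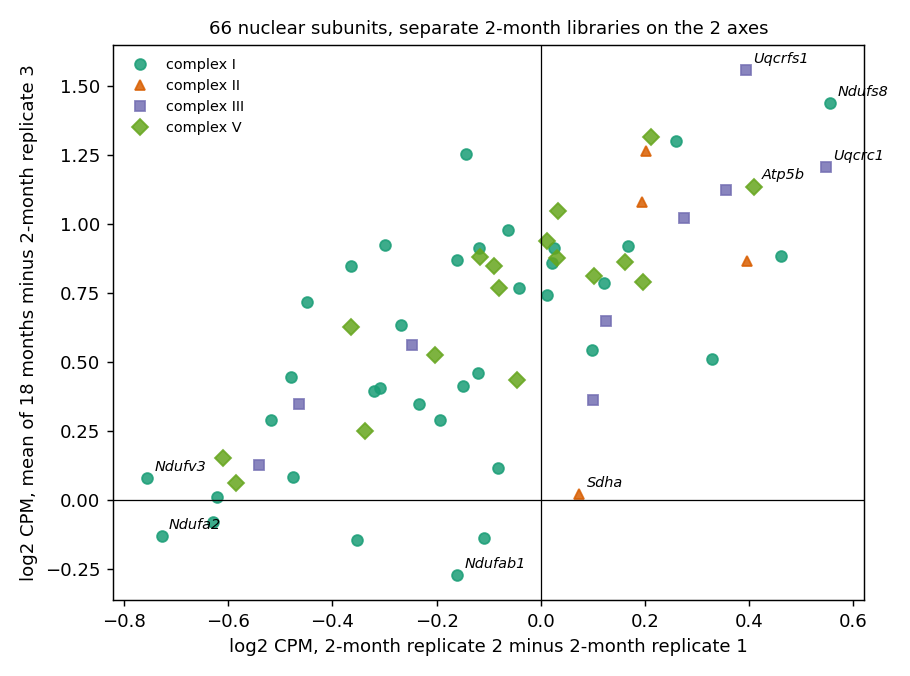
Each point is 1 of the 66 subunits. The x axis is log2 CPM of 2-month replicate 2 minus that of 2-month replicate 1, the y axis is the mean log2 CPM of the 18-month libraries minus that of 2-month replicate 3, and no library is on both axes. Subunits to the right lie higher on the y axis (Spearman correlation 0.71, n = 66), with Sdha among the exceptions.

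Counts of the nuclear subunits were also set against those of the 13 subunits encoded in the mitochondrial genome, within each library. The nuclear to mitochondrial ratio was 0.194, 0.142 and 0.148 at 2 months and 0.285, 0.242 and 0.250 at 18 months, so the ages did not overlap. The 18-month mean was 1.75-fold that of 2 months for complex V, 1.69-fold for complex III, 1.43-fold for complex I and 1.41-fold for complex II. In edgeR 0 of the 13 mitochondrial genes passed the adjusted p, 0 had an unadjusted p below 0.05, and the median log2 fold change was -0.10. DESeq2 also called 0, whereas in TPM 2 were lower. Poly(A) selection was used, and mitochondrial transcripts carry short tails.

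Within the nuclear counts the balance of the complexes shifted by a few percentage points. Complex V took 45.4 ± 1.14% at 2 months and 49.4 ± 0.0872% at 18 months of the members' counts, complex III 12.2 ± 0.221% and 12.8 ± 0.0891%, complex I 33.2 ± 1.69% and 29.8 ± 0.203%, and complex II 9.17 ± 0.525% and 7.97 ± 0.202% (SD, n = 3 each). The share of complex II was lower at 18 months, although 3 of its 4 genes rose.

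Other genes of the pathway are given by count only. Of the 17 nuclear complex IV genes listed, 16 were tested, 11 were higher and 2 lower at an adjusted p below 0.05 (median log2 fold change 0.70). Of 9 carriers and cytochrome c genes 6 were higher and 1 lower, and of 11 regulators 5 were higher and 2 lower (edgeR), beside the 23.4% higher and 27.9% lower of all genes tested.

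Levels of members were ranked only per length. The shares and ratios of counts given above are not scaled by length, so they describe differences between libraries and do not rank levels. The FPKM values follow the length of all annotated exons of a gene together, which for the members was 1 to 12.4 times (median 1.81) the length of the shortest principal transcript. Atp5a1, Atp5b, Uqcrh and Atp5h had the highest mean FPKM. Per principal transcript length the order began with Atp5b, Atp5h, Atp5g2 and Atp5a1, and the Spearman correlation of both orders was 0.61 (n = 66). Fold changes with age do not depend on this length, and across the 66 members the log2 fold change had a Spearman correlation of 0.08 with mean FPKM and 0.10 with transcript length.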

How the data were processed

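RNA sequencing of cartilage was analysed in 6 libraries, 3 per age. The table that the authors deposited holds raw counts for each gene, not normalized, beside FPKM values, which are scaled by gene length and library total. The submitters' processing notes name cutadapt 1.9, HISAT2 2.0.4, UMI-tools, StringTie 1.3.4d, DESeq2 and edgeR. The genome build and the strand setting of the counting are not given in the sources used here. Of the gene IDs, 99.7% were found in GENCODE M21 (GRCm38), with the same coordinates for 55 of the 66 members. Positions of genes are those deposited. Every column of values belonged to one of the 6 libraries. Counts divided by FPKM and by the summed counts of the library gave 1.14 times the length of all exons in M21 for the median member. This factor was nearly the same for every member (1.143 to 1.146), so it need not be a longer gene length. Its source was not tested. Pseudogene copies of members held 0.431% as many counts as all members together, but unevenly. Ndufa12-ps had 548, 436 and 448 counts at 2 months and 1084, 544 and 884 at 18 months. Ndufa12 itself had 456, 492 and 375 at 2 months and 1012, 959 and 723 at 18 months. The counts may be split between copies, and for Ndufa12 by far more than the pooled figure.

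The test was edgeR 4.0.16 in R 4.3.3 (TMM, filterByExpr, quasi-likelihood test, no replicate block) on the counts. All 66 members passed the filter. Benjamini-Hochberg adjustment covered 20397 genes. The limits were an adjusted p of 0.05 and a log2 fold change of 1, the latter after the study. Standard errors were obtained from the fold change and the F statistic. The script was tested on simulated counts in which 200 of 20397 genes were changed. It called 2 of the 200 at a simulated log2 fold change of 1 and 104 at 2. False calls numbered 1 and 3. The simulated spread followed the trend over all genes, not that of the members. In the data, 39 members with log2 fold changes of 0.43 to 0.99 passed the adjusted p. The simulated rates therefore do not say how often a subunit would be called. A gene not past the test is still not shown to be unchanged. Replicates of an age differed by 5.70 to 58.8 times the sampling expectation over the members and were kept separate. The lowest value was that of 18-month replicates 2 and 3, against 16.4 and 15.4 for the other 18-month pairs. The labels do not say whether these 2 libraries are independent. With them summed, 8 subunits were called higher by both limits and 41 by adjusted p alone, against 8 and 47. Alternatives used limma 3.58.1, DESeq2 1.42.0, other scalings and filters, and leaving out each library. Correlations used scipy 1.17.1 and figures matplotlib 3.10.9.

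Members and gene lists were chosen with earlier results of these data known. Counts without the fold limit were included because those results had shown most subunits to change by less than that limit. Values are given for all of complex II, the 3 largest and 3 smallest log2 fold changes of complexes I, III and V, every subunit past both limits, the highest mean FPKM of each complex, the core subunits of complex I, Cyc1, Uqcrfs1, the c subunit genes, Ndufb3, Uqcrc1 and the X-linked members, except 1 subunit that is not reported here. The marker lists whose calls are not given above (macrophage, B lymphocyte, skeletal muscle, osteoclast, osteoblast, adipocyte and endothelial) had 3 of 8, 0 of 8, 0 of 7, 0 of 7, 0 of 7, 1 of 3 and 1 of 6 tested genes called higher, and 0, 0, 4, 0, 3, 0 and 0 called lower. Of all genes tested, 14.9% were called higher and 21.3% lower.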

Additional observations from a re-analysis of the deposited data

How the results depend on the processing

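The 34 subunits chosen by the naming rule, the counts and the medians were recomputed under 17 alternatives, 1 of them added after the data were seen (18-month replicates 2 and 3 summed). Over these, 47 of the 66 members kept a log2 fold change above 0 and 25 stayed higher at an adjusted p below 0.05. The count called by both limits was 15 with scaling by total counts, 4 with a mean FPKM of at least 1, 15 with limma on log2(FPKM + 0.1) and 0 in TPM, against 8. It was 6 to 12 when 1 library was left out, and the count by adjusted p alone was then 38 to 47. In TPM 25 were higher and 3 lower, and the medians of complexes I, II, III and V were 0.12, 0.50, 0.27 and 0.41, a shift that all genes shared by construction. With a mean FPKM of at least 1 the median was 0.36 for complex I and 0.66 for complex V, and for complex V it was 0.83 with total counts and 0.84 with limma. The cause of these moves was not tested.

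Signs changed only among named subunits that were not past the test. In TPM they were Atp5g2 (-0.13), Atp5j (-0.27), Atp5md (-0.019), Ndufb11 (-0.011), Sdha (-0.34) and Uqcrh (-0.22). With a mean FPKM of at least 1 they were Atp5j (-0.041) and Sdha (-0.085). Leaving out 1 library gave -0.046 to 0.22 for Atp5j, -0.26 to 0.071 for Ndufa2, -0.11 to 0.038 for Ndufs3 and -0.072 to 0.085 for Sdha. The lowest value of Atp5j, Ndufa2 and Ndufs3 came without 2-month replicate 2, and that of Sdha without 18-month replicate 1. Ndufs3 turned to 0.027 with median-of-ratios size factors, 0.053 with total counts, 0.0018 with no filter, 0.027 with DESeq2, 0.063 and 0.060 with limma on log2(FPKM + 0.1) and log2(FPKM + 1), and 0.014 with the summed libraries. The replicate block gave 8 and 41 subunits higher, and among the subunits with values it ended the call of Uqcr10 (adjusted p = 0.0624). By both limits it lost Sdhd (0.998) and gained Atp5b (1.003). Same-numbered libraries did not deviate together (correlations 0.03, 0.04 and -0.02), so the numbers were not taken as pairs. The lowest count of a member in any library was 375 (Ndufa12), so the spread between 3 libraries per age, more than depth, limits the precision.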
